A study of Homo sapiens with 6 samples.

Results

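The genes described here encode the enzymes and regulators of the methionine cycle, methylthioadenosine salvage, polyamine metabolism, the folate cycle and serine synthesis. They were taken from a list of 38 symbols, matched to the 62700 genes of the deposited count table by GENCODE 44 identifier, and all 38 were found. No measured value was part of the rule, but earlier results of these data were known when the list was made. They were sorted into 12 branches by enzymatic role.

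S-adenosylmethionine (SAM) is made from methionine and ATP, and is the donor of methyl groups for DNA, RNA, protein and small-molecule methyltransferases. Each transfer leaves S-adenosylhomocysteine (SAH), which is split to homocysteine and then either remethylated to methionine with a folate-borne methyl group or drawn off to cysteine. Decarboxylated SAM feeds polyamine synthesis, whose by-product methylthioadenosine is salvaged to methionine, and serine supplies the carbon units of the folate cycle. Nicotinamide N-methyltransferase, the product of NNMT, uses SAM to methylate nicotinamide, which is the link between the targeted gene and these pathways.

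Poly(A) RNA was sequenced from cultures grown in RPMI medium and given as MKN-45, an established line of human gastric adenocarcinoma. There were 3 libraries of cells labelled NNMT knockdown and 3 control libraries, all said to be independent biological replicates harvested 48 h after transfection. The treatment protocol names an NNMT siRNA delivered with Lipofectamine RNAiMAX, whereas other fields name an shRNA, and no clone or selection is given. The controls are a non-targeting siRNA in the treatment protocol, a negative-control shRNA in the genotype label and untouched cells in the design text. Apart from the transfected RNA, no treatment or allele is given for either group.

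Gene-level reads summed to between 40558680 and 45405621 in the labelled-knockdown libraries and to between 41591436 and 56067484 in the controls. NNMT itself had 2, 8 and 14 reads in the labelled-knockdown libraries and 0, 8 and 12 reads in the controls. The labels could therefore not be checked by the targeted gene, and the controls themselves held little NNMT transcript that could be lowered. Its fitted log2 fold change was 0.48 ± 0.93 (SE, n = 3 per group), and the quasi-likelihood test of edgeR gave an adjusted p of 0.9995. The epithelial genes KRT8, KRT18, KRT19, EPCAM and CDH1 were present in every library. Of 11 gastrointestinal markers, 6 were below 1 CPM (reads on a gene, scaled to a common library total) in all 6 libraries. They were CDX2 and GKN1, with 0 reads in each library, and HNF4A, VIL1, CDH17 and LGALS4. KRT20 was present throughout, at 22.6 to 68.6 CPM in the labelled-knockdown libraries and 58.8 to 78.0 CPM in the controls. TFF1 ran from 3.50 to 7.598 CPM in the labelled-knockdown libraries and from 1.64 to 8.37 CPM in the controls. CEACAM5 ran from 0.74 to 12.9 CPM in the labelled-knockdown libraries and from 0.289 to 26.8 CPM in the controls. The identity of the line was not tested. Among the markers with enough reads to be tested, KRT18 was the one whose groups did not overlap (113 ± 1.62 CPM in the labelled-knockdown libraries against 122 ± 4.89 CPM in the controls, SD, n = 3 each, adjusted p = 0.9995 in edgeR's test).

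Promoters are printed for 3 genes because they mark both ends of the range of levels: ODC1 and MAT2A, the genes with the highest reads per kilobase, and MAT1A, which had 0 reads in every library while encoding the same catalytic activity as MAT2A. Each sequence is the 250 bases before the annotated start, 5′ to 3′ on the gene's own strand, from RefSeq on GRCh38.p14. Capitals mark every match, on either strand, to the GC box GGGCGG, the CCAAT box CCAAT, the TATA box TATAAA, the E-box CACGTG or the amino acid response core TGATGNAA. The windows are chr2:85538918-85539167 on the plus strand for MAT2A, chr10:80289659-80289908 on the minus strand for MAT1A and chr2:10448328-10448577 on the minus strand for ODC1.
MAT2A: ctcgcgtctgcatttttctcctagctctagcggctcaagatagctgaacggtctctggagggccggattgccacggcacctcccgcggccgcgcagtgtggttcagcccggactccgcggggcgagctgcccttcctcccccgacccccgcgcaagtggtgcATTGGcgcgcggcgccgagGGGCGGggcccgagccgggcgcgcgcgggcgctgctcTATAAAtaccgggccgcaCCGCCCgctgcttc
MAT1A: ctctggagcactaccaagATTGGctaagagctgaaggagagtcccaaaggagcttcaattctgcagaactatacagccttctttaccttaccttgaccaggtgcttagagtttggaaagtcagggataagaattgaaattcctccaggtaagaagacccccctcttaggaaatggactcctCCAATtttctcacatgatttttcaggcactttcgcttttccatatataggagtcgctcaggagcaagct
ODC1: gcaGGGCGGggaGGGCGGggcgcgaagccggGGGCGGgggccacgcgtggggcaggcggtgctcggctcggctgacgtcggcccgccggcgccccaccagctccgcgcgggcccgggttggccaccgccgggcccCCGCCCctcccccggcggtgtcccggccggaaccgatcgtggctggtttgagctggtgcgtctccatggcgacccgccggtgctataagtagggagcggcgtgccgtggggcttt

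The MAT2A window was 71.6% G and C with 34 CG dinucleotides, and the ODC1 window 78.8% with 36. The MAT1A window was 44.8% G and C with 2 CG dinucleotides and no GC box. RefSeq windows were at hand for 31 of the 38 genes. MTRR, AZIN1, SMOX, PAOX, GAMT, SHMT2 and PSPH had none here. The median G and C content of the 31 was 67.2%, against 58.0% over all 27305 windows of the same length. A GC box was found in 22 of the 31 (71.0%, against 42.3% of all windows), and a CCAAT box in 17 (54.8%, against 33.0%). The E-box CACGTG, the letters that MYC and MAX dimers bind, was found in 6 (19.4%, against 6.49%): ADI1, ENOPH1, MRI1, MTHFD1, MTHFD1L and SRM. The TATA box was found in 3 (9.68%, against 11.1%) and TGATGNAA in 1, MTHFD1L (3.23%, against 3.19%). The windows of all genes were not matched to the 31 for G and C content or for level of expression. The higher shares therefore cannot be read as particular to these pathways. These matches are descriptions of letters in the window, and no binding was measured.

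No gene of the 38 changed past the test. Of the 35 genes with enough reads to be tested, 0 were called at an adjusted p under 0.05 by that edgeR test, where the background over all 20250 tested genes was also 0%. Their adjusted p-values ran from 0.9995 to 0.9997. At an unadjusted p under 0.05 there were 2 genes, GNMT and SMOX, which is 5.71% of those tested against a background of 4.03%. Both were higher in the labelled-knockdown libraries, and over all tested genes the share was 1.98% for higher and 2.05% for lower values. The groups did not overlap in CPM for 8 of the 35 (22.9%, against a background of 9.17%), 4 of them higher and 4 lower in the labelled-knockdown libraries, where the backgrounds were 4.29% and 4.88%. With TMM scaling 7 of the 35 did not overlap (20%, against 9.2%), MAT2B being the one that did. The fitted log2 fold change was above 0 for 22 genes and below 0 for 13, where 50.75% of all tested genes were above 0. Its median was 0.043, against 0.0033 over all tested genes, and its median size without sign was 0.11, against 0.12. The median moved with single libraries. It was 0.0039 without labelled-knockdown replicate 2, 0.012 without labelled-knockdown replicate 1, 0.019 without control replicate 3 and 0.072 without control replicate 1. No test was made of the list as a whole.

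The 95% intervals describe the difference between the labelled groups, each for a single gene and without adjustment over genes. They are not limits on an effect of losing NNMT, because the knockdown could not be checked. For 30 of the 35 genes the fold change had a 95% interval inside 1.5-fold in either direction (85.7%, against 52.7% of all tested genes). A limit of 2-fold held for 32 (91.4%, against 70.8%). The 3 genes whose interval went past 2-fold were CBS, GNMT and PHGDH. The 35 genes were also more highly expressed than most, with a median of 41.5 CPM over the 6 libraries against 9.57 CPM. Among genes with a mean of at least 5 CPM, the highest library exceeded the lowest 1.27-fold in the median, both for the 32 genes of the list and for 11518 genes in all.

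**Figure D1:**
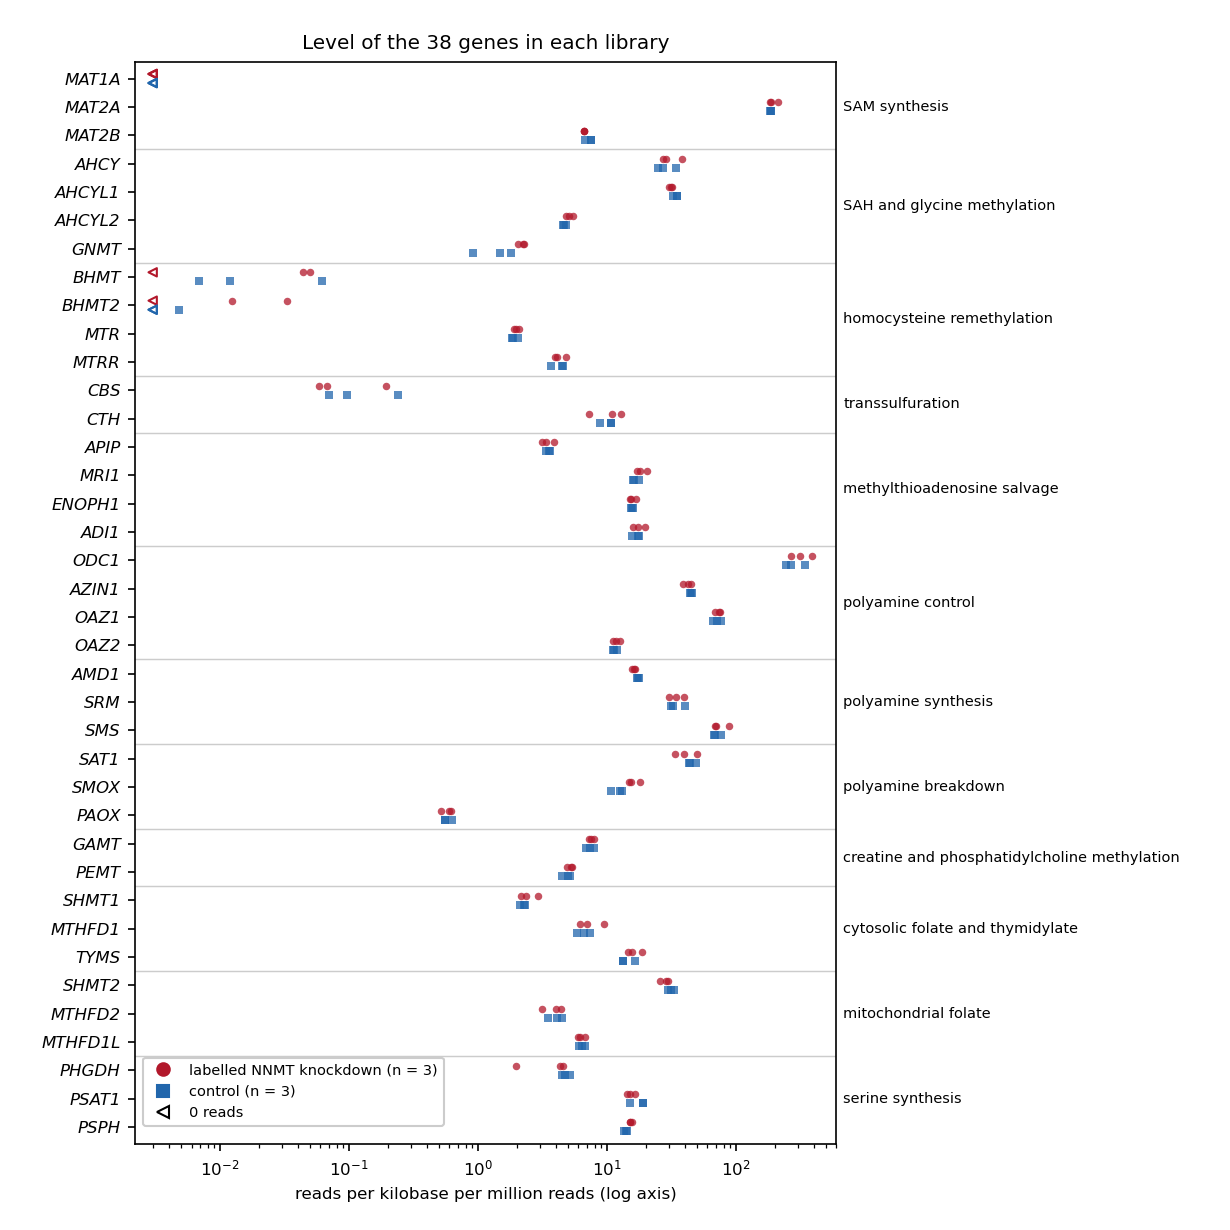
Level of the 38 genes by branch, in RPKM, reads per kilobase of merged exon scaled to the library total (log axis), with each of the 3 labelled-knockdown libraries and each of the 3 controls as a point. The levels span from ODC1, at a mean of 303 over the 6 libraries, to CBS, at 0.121, and to the 3 genes with few reads or none.

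Levels between genes are compared as RPKM, which divides the scaled reads by the kilobases of merged exon. The highest mean over the 6 libraries was that of ODC1 at 303 RPKM, followed by MAT2A at 190, SMS at 73.0, OAZ1 at 71.9, AZIN1 at 43.3, SAT1 at 43.2, SRM at 34.6, AHCYL1 at 32.6, AHCY at 29.9 and SHMT2 at 29.6. SMS and OAZ1 overlapped in their library values, and so did each neighbouring pair from AZIN1 down to SHMT2. The lowest levels above 1 RPKM were those of MTR at 1.95 and GNMT at 1.79, which overlapped, and PAOX and CBS followed at 0.577 and 0.121. With the length of the principal transcript in place of the merged exons, 9 of the 10 highest were the same genes, with AMD1 in place of AHCYL1. The most abundant gene of some branches changed with that length. AHCY (54.4) then stood above AHCYL1 (40.9), and MTHFD1 (39.4) above TYMS (22.4). ADI1 (38.55) stood above MRI1 (35.1), and PSPH (18.5) above PSAT1 (16.6). In the other branches the most abundant gene was the same.

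SAM synthesis rests on MAT2A, the catalytic subunit made in most tissues, MAT2B, its regulatory partner, and MAT1A, the catalytic subunit of liver. MAT2A (chr2:85539168-85545281 in hg38) had 954, 829 and 830 CPM in labelled-knockdown replicates 1, 2 and 3, against 819, 840 and 833 CPM in control replicates 1, 2 and 3. Replicate 1 of the labelled knockdown stood above the other 5 libraries, which lay close together. The fitted log2 fold change was 0.073 ± 0.10 (SE, n = 3 per group), and its 95% interval ran from 0.903-fold to 1.23-fold. GGCX, on the opposite strand, covers 12.5% of the exon bases of MAT2A, and the counts did not use strand. MAT2B had 57.6, 57.4 and 57.3 CPM in the labelled-knockdown libraries, against 64.9, 58.7 and 65.7 CPM in the controls. The 3 labelled-knockdown values were nearly equal and below all 3 controls, and the log2 fold change was -0.13 ± 0.081 (SE), adjusted p 0.9995 in edgeR's test. MAT1A had 0 reads in each of the 6 libraries, which allows up to 0.0535 to 0.074 CPM depending on the library.

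SAH is split by AHCY, and AHCYL1 and AHCYL2 are related proteins better known for binding the IP3 receptor and ion transporters. AHCY had 111, 149 and 105 CPM in the labelled-knockdown libraries, against 132, 96.3 and 106 CPM in the controls. The highest library was therefore labelled-knockdown replicate 2 and the next control replicate 1, and the groups overlapped. AHCYL1 had 160, 152 and 157 CPM in the labelled-knockdown libraries, against 165, 176 and 174 CPM in the controls. AHCYL2 had 33.1, 37.3 and 34.6 CPM in the labelled-knockdown libraries, against 31.7, 31.1 and 32.9 CPM in the controls. Neither relative overlapped between groups, AHCYL1 being lower and AHCYL2 higher in the labelled-knockdown libraries. The log2 fold changes were -0.13 ± 0.079 for AHCYL1 and 0.14 ± 0.086 for AHCYL2 (SE, n = 3 per group), and edgeR's adjusted p was 0.9995 for both. GNMT, which methylates glycine and so uses up surplus SAM, chiefly in liver, had 2.44, 2.18 and 2.42 CPM in the labelled-knockdown libraries, against 0.986, 1.93 and 1.61 CPM in the controls. All 3 labelled-knockdown libraries were above all 3 controls, and control replicate 1 was the lowest library. The log2 fold change of GNMT was 0.64 ± 0.28 (SE), with a 95% interval of 1.014-fold to 2.39-fold and an unadjusted p of 0.0441. After adjustment, edgeR's test gave 0.9995. Without control replicate 1 the log2 fold change was 0.42 and edgeR's unadjusted p 0.147. Leaving out any other single library gave a p of 0.0519 or more in that test, except control replicate 2, which gave 0.0224. With the replicate number as a block that p was 0.0508. GNMT had 41 to 105 reads per library.

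Homocysteine is remethylated by MTR, the cobalamin-dependent methionine synthase, which MTRR reactivates. BHMT and BHMT2 are the betaine- and S-methylmethionine-dependent methyltransferases, expressed mainly in liver and kidney. MTRR had 25.4, 31.1 and 26.8 CPM in the labelled-knockdown libraries, against 28.8, 23.8 and 29.4 CPM in the controls. MTR averaged 38.1 ± 1.90 CPM in the labelled-knockdown libraries and 36.8 ± 1.89 CPM in the controls (SD, n = 3 each). Both overlapped between the groups, with log2 fold changes of 0.025 ± 0.11 for MTRR and 0.053 ± 0.085 for MTR (SE). BHMT had 7, 7 and 0 reads in the labelled-knockdown libraries and 1, 2 and 12 reads in the controls. BHMT2 had 5, 0 and 2 reads in the labelled-knockdown libraries and 0, 0 and 1 in the controls. These are too few for a test, and mates of a pair were counted singly, so a count of 2 can be 1 fragment.

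In transsulfuration CBS joins homocysteine to serine and CTH releases cysteine. CTH had 31.2, 17.6 and 26.5 CPM in the labelled-knockdown libraries, against 21.1, 25.9 and 25.7 CPM in the controls. Both extremes were labelled-knockdown libraries, and the log2 fold change was 0.060 ± 0.20 (SE). CBS had 16, 60 and 20 reads in the labelled-knockdown libraries, against 27, 23 and 91 reads in the controls. Within each group 1 library held several times the reads of the others, and the 95% interval of the fold change ran from 0.323 to 1.93. Per kilobase, CTH was 37.5-fold to 223-fold above CBS in the labelled-knockdown libraries and 44.5-fold to 152-fold above it in the controls.

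Methylthioadenosine salvage returns the by-product of polyamine synthesis to methionine through MRI1, an isomerase, APIP, a dehydratase, ENOPH1, an enolase-phosphatase, and ADI1, a dioxygenase. MRI1 had 71.0, 59.6 and 62.8 CPM in the labelled-knockdown libraries, against 60.8, 55.8 and 55.5 CPM in the controls. The groups overlapped through labelled-knockdown replicate 2 and control replicate 1, and the log2 fold change was 0.17 ± 0.098 (SE, n = 3 per group, adjusted p = 0.9995 in edgeR's test). An opposite-strand gene covers 31.1% of the exon bases of MRI1. APIP averaged 18.0 ± 1.88 CPM in the labelled-knockdown libraries and 18.3 ± 0.671 CPM in the controls (SD, n = 3 each). ENOPH1 averaged 32.7 ± 1.99 CPM in the labelled-knockdown libraries and 32.6 ± 0.573 CPM in the controls. ADI1 averaged 94.1 ± 10.4 CPM in the labelled-knockdown libraries and 90.2 ± 5.49 CPM in the controls. All 3 overlapped between the groups.

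Polyamine output is set largely at ODC1, ornithine decarboxylase, which the antizymes OAZ1 and OAZ2 send for degradation and the antizyme inhibitor AZIN1 spares. ODC1 (chr2:10439968-10448327 in hg38) had 1276, 1033 and 883 CPM in the labelled-knockdown libraries, against 1138, 805 and 875 CPM in the controls. The groups overlapped, replicate 1 being the highest library of each. The log2 fold change was 0.18 ± 0.17 (SE), with a 95% interval of 0.865-fold to 1.49-fold. It was 0.012 without labelled-knockdown replicate 1 and 0.35 without control replicate 1, and it was 0.30 without labelled-knockdown replicate 3 and 0.081 without control replicate 2. AZIN1 averaged 257 ± 17.8 CPM in the labelled-knockdown libraries and 274 ± 2.84 CPM in the controls (SD, n = 3 each). OAZ1 averaged 249 ± 10.9 CPM in the labelled-knockdown libraries and 245 ± 16.8 CPM in the controls. OAZ2 averaged 90.6 ± 5.75 CPM in the labelled-knockdown libraries and 88.0 ± 3.93 CPM in the controls. None of these controllers of ODC1 was without overlap, and their log2 fold changes lay between -0.095 and 0.043. Antizymes act on the ODC1 protein, and protein was not measured.

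AMD1, the decarboxylase that commits SAM to polyamines, had 158, 169 and 164 CPM in the labelled-knockdown libraries, against 178, 174 and 180 CPM in the controls. All 3 controls were above all 3 labelled-knockdown libraries, and the log2 fold change was -0.11 ± 0.075 (SE, n = 3 per group), with a 95% interval of 0.824-fold to 1.04-fold. SMS, spermine synthase, had 188, 145 and 148 CPM in the labelled-knockdown libraries, against 162, 144 and 146 CPM in the controls. Replicate 1 was again the highest of each group for SMS. SRM, spermidine synthase, averaged 65.7 ± 8.60 CPM in the labelled-knockdown libraries and 65.3 ± 9.24 CPM in the controls (SD, n = 3 each). The adjusted p-values of the 3 synthesis genes were 0.9995 for AMD1 and SMS and 0.9997 for SRM in edgeR's test.

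Polyamines are broken down by SAT1, which acetylates them, PAOX, which oxidises the acetylated forms, and SMOX, which oxidises spermine directly. SMOX (chr20:4120980-4187747 in hg38) had 44.9, 53.3 and 43.7 CPM in the labelled-knockdown libraries, against 38.7, 31.5 and 36.9 CPM in the controls. It had the lowest p of the 35 genes, and the 3 labelled-knockdown libraries were all higher than the 3 controls. The log2 fold change was 0.41 ± 0.11 (SE, n = 3 per group) with a 95% interval of 1.12-fold to 1.56-fold. Its unadjusted p was 0.00341, and after adjustment over 20250 genes edgeR's test gave 0.9995. SAT1 had 98.6, 84.1 and 122.7 CPM in the labelled-knockdown libraries, against 109, 107 and 122.0 CPM in the controls. The highest and lowest libraries for SAT1 were both labelled knockdown, and the log2 fold change was -0.14 ± 0.13 (SE). It was -0.015 without labelled-knockdown replicate 2, -0.093 without control replicate 3, and -0.30 without labelled-knockdown replicate 3, where edgeR's unadjusted p was 0.0239. PAOX averaged 1.29 ± 0.112 CPM in the labelled-knockdown libraries and 1.30 ± 0.0994 CPM in the controls (SD, n = 3 each), and another gene on its own strand covers 61.0% of its exon bases.

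**Figure D2:**
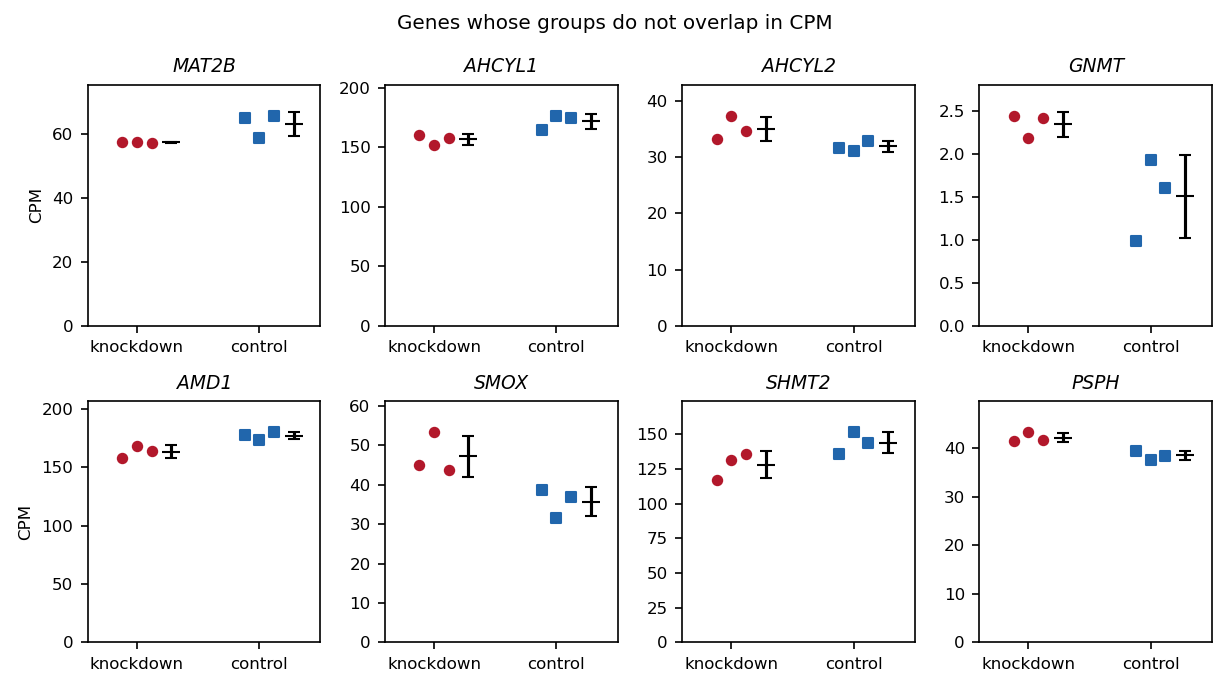
CPM of the 8 genes whose groups do not overlap, with the 3 labelled-knockdown libraries left of the 3 controls in each panel, and the mean ± SD as a bar beside the points. AHCYL2, GNMT, SMOX and PSPH lie higher and MAT2B, AHCYL1, AMD1 and SHMT2 lower in the labelled-knockdown libraries, and none passed the adjusted test.

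Creatine and phosphatidylcholine synthesis are large consumers of SAM in the body, through GAMT and PEMT. GAMT had 17.4, 19.1 and 18.0 CPM in the labelled-knockdown libraries, against 18.9, 17.6 and 16.4 CPM in the controls. PEMT averaged 8.89 ± 0.398 CPM in the labelled-knockdown libraries and 8.41 ± 0.651 CPM in the controls (SD, n = 3 each). Both overlapped between groups, with log2 fold changes of 0.047 ± 0.11 for GAMT and 0.083 ± 0.14 for PEMT (SE).

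The cytosolic folate enzymes were SHMT1, which moves a carbon unit from serine to folate, MTHFD1, which interconverts folates, and TYMS, which uses methylene-folate to make thymidylate. TYMS had 38.1, 45.2 and 35.05 CPM in the labelled-knockdown libraries, against 39.8, 32.4 and 32.4 CPM in the controls. MTHFD1 had 122, 165 and 107 CPM in the labelled-knockdown libraries, against 128, 102 and 115 CPM in the controls. SHMT1 had 16.5, 20.3 and 15.1 CPM in the labelled-knockdown libraries, against 15.9, 14.9 and 16.2 CPM in the controls. Labelled-knockdown replicate 2 was the highest library for all 3 genes, and control replicate 1 the second highest for TYMS and MTHFD1. The S-phase genes TK1 and RRM2 had the same 2 libraries on top. Not every purine and thymidylate gene did, and for GART and PFAS labelled-knockdown replicate 1 was second. A shared cause was not tested. TK1 stood at 80.6, 114.6 and 69.4 CPM in the labelled-knockdown libraries, against 107.8, 72.6 and 69.5 CPM in the controls. RRM2 stood at 180, 217.4 and 152 CPM in the labelled-knockdown libraries, against 213.5, 143 and 147 CPM in the controls. The log2 fold changes were 0.15 ± 0.13 for SHMT1, 0.19 ± 0.15 for MTHFD1 and 0.18 ± 0.12 for TYMS (SE). Without labelled-knockdown replicate 2 they were 0.026 for SHMT1, 0.0039 for MTHFD1 and 0.080 for TYMS. Without control replicate 1 they were 0.17 for SHMT1, 0.28 for MTHFD1 and 0.29 for TYMS. Without both libraries, an alternative chosen after seeing the data, they were 0.047 for SHMT1, 0.10 for MTHFD1 and 0.20 for TYMS. Single other libraries also moved them by over 1.5 times: SHMT1 was 0.23 and MTHFD1 0.32 without labelled-knockdown replicate 3, MTHFD1 was 0.11 without control replicate 2, and TYMS was 0.12 without control replicate 3. ENOSF1, on the opposite strand, and another gene together cover 47.9% of the exon bases of TYMS.

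The mitochondrial folate enzymes SHMT2, MTHFD2 and MTHFD1L turn serine into formate for use in the cytosol. SHMT2 (chr12:57229573-57234935 in hg38) had 117, 131 and 135.7 CPM in the labelled-knockdown libraries, against 136.1, 151 and 144 CPM in the controls. The groups touched without overlapping, and the log2 fold change was -0.16 ± 0.083 (SE, n = 3 per group), with a 95% interval of 0.786-fold to 1.014-fold. Its adjusted p in edgeR's test was 0.9995. MTHFD2 averaged 44.1 ± 7.13 CPM in the labelled-knockdown libraries and 45.8 ± 5.64 CPM in the controls (SD, n = 3 each). MTHFD1L averaged 30.8 ± 1.97 CPM in the labelled-knockdown libraries and 31.4 ± 1.75 CPM in the controls. All 3 fitted values were below 0 in this branch and all 3 above 0 in the cytosolic branch, and none of the 6 passed the test. Those of MTHFD2 (-0.054 ± 0.12) and MTHFD1L (-0.026 ± 0.093, SE) were small. With 1 library left out they rose to as much as 0.057 for MTHFD2 and 0.024 for MTHFD1L.

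Serine is made by PHGDH, PSAT1 and PSPH in that order. PSAT1 had 33.2, 31.3 and 36.2 CPM in the labelled-knockdown libraries, against 33.5, 41.8 and 42.0 CPM in the controls. PSPH had 41.5, 43.3 and 41.8 CPM in the labelled-knockdown libraries, against 39.5, 37.7 and 38.4 CPM in the controls. PSAT1 overlapped through control replicate 1, whereas PSPH was higher in all 3 labelled-knockdown libraries. The log2 fold changes were -0.22 ± 0.11 for PSAT1 and 0.13 ± 0.082 for PSPH (SE), and edgeR's adjusted p was 0.9995 for both. PSPH has a named pseudogene that held 4690 reads beside the 11073 of PSPH over the 6 libraries, so reads of these near-copies may be divided between them. PHGDH had 18.1, 39.7 and 41.7 CPM in the labelled-knockdown libraries, against 40.9, 47.3 and 43.4 CPM in the controls. Labelled-knockdown replicate 1 stood far below the other 5 libraries. The log2 fold change of PHGDH was -0.40 ± 0.30 (SE), with a 95% interval of 0.454-fold to 1.26-fold, and it was -0.12 without that replicate.

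**Figure D3:**
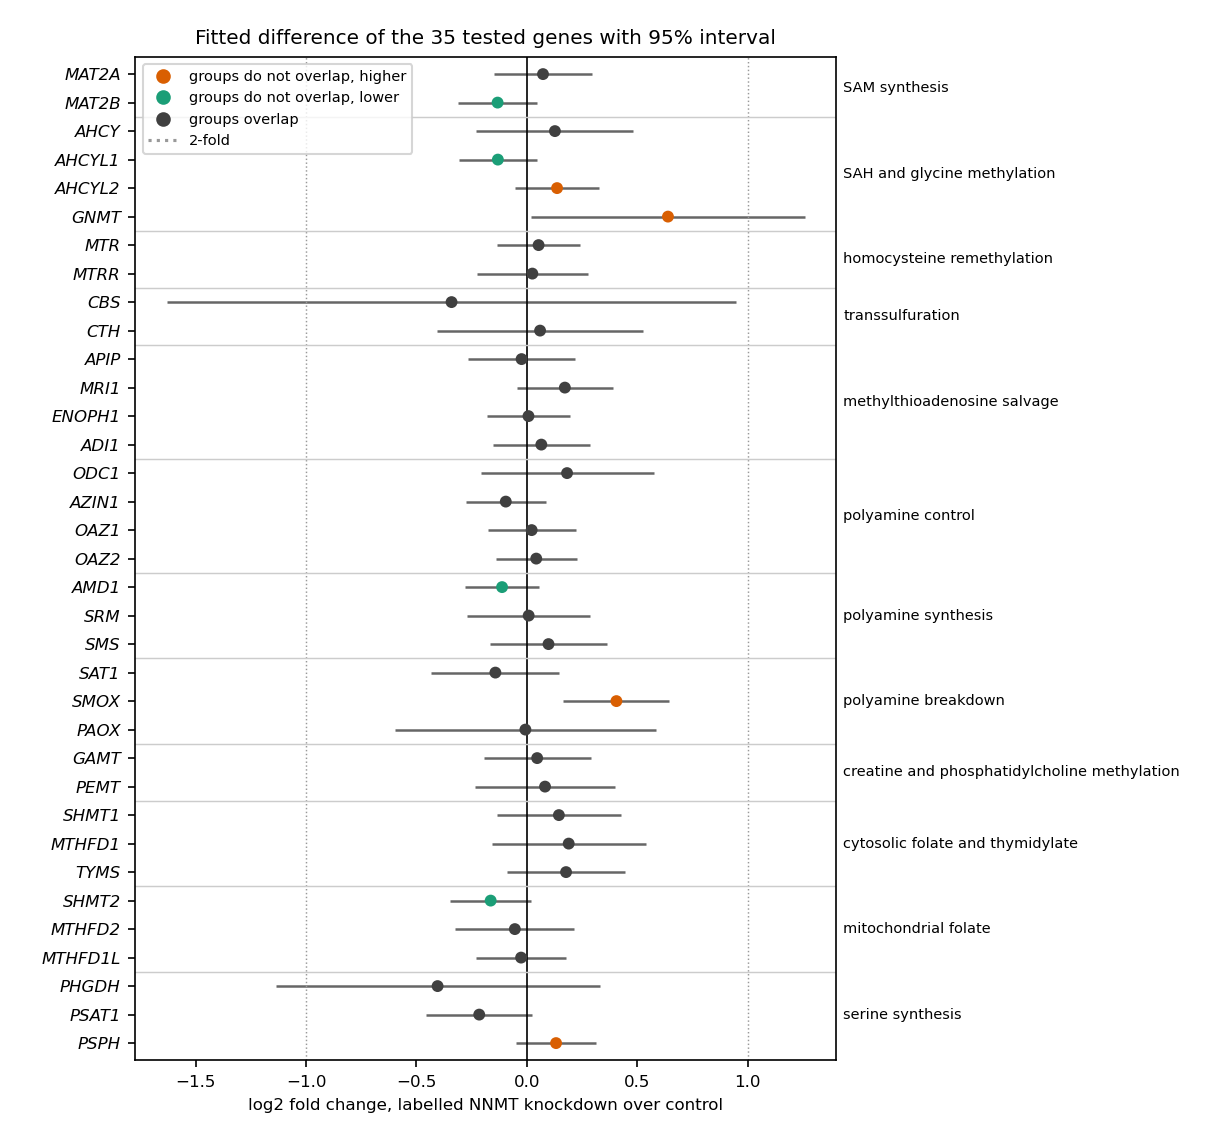
Fitted log2 fold change, labelled NNMT knockdown over control, of the 35 tested genes by branch, with the 95% interval as a bar. The values run from -0.40 for PHGDH to 0.64 for GNMT, and the intervals of 32 genes lie within 2-fold in either direction.

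Within a library, the ratio of a pair of genes does not depend on how libraries are scaled, and 13 ratios were compared by an exact two-sided permutation test, which cannot go below p = 0.1 with 3 libraries against 3. MAT2A per MAT2B, in reads per kilobase, was 32.1, 28 and 28.1 in the labelled-knockdown libraries, against 24.5, 27.7 and 24.6 in the controls. AHCYL1 per AHCYL2 was 6.59, 5.53 and 6.19 in the labelled-knockdown libraries, against 7.07, 7.71 and 7.22 in the controls. These were the ratios whose groups did not overlap, the first higher and the second lower in the labelled-knockdown libraries. Each had an exact p of 0.1 in the permutation test and an adjusted p of 0.557 over the 13. The ratio of AHCYL1 to AHCYL2 had to separate, because the 2 genes already lay apart between the groups in opposite directions. It is therefore not a separate observation. MTHFD2 per MTHFD1 and PSPH per PSAT1 each had an exact p of 0.2 with overlapping groups, and the other 9 had an exact p of 0.3 or more. SHMT2 per SHMT1 was 10.8, 9.87 and 13.7 in the labelled-knockdown libraries, against 13.1, 15.5 and 13.6 in the controls, so the mitochondrial enzyme was the more abundant per kilobase throughout. The size of a ratio depends on the lengths used. PSAT1 per PHGDH was 7.62, 3.29 and 3.61 in the labelled-knockdown libraries, against 3.41, 3.68 and 4.03 in the controls. With principal transcript lengths it was 2.16, 0.932 and 1.03 in the labelled-knockdown libraries, against 0.968, 1.04 and 1.14 in the controls.

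**Figure D4:**
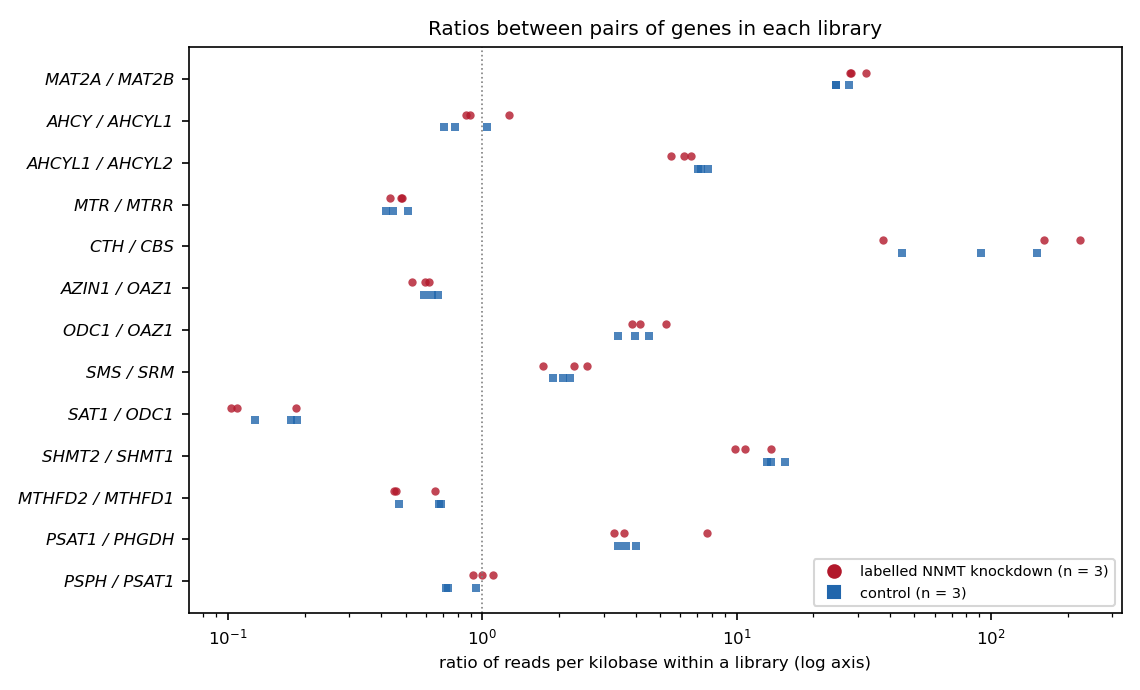
Within-library ratios of reads per kilobase for the 13 pairs, on a log axis, with the 3 labelled-knockdown libraries and the 3 controls as points. Only MAT2A per MAT2B and AHCYL1 per AHCYL2 have groups that do not overlap, and no ratio could reach an exact p below 0.1.

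Among the 35 tested genes, labelled-knockdown replicate 2 was the highest library for 13 (37.1%, against 23.8% of all tested genes) and the lowest for 5 (14.3%, against 16.4%). Labelled-knockdown replicate 1 was the highest for 7 (20%, against 15.1%) and the lowest for 9 (25.7%, against 22.3%). Labelled-knockdown replicate 3 was the highest for 2 and the lowest for 2 (5.71% each, against 12.1% and 12.4%). Control replicate 1 was the highest for 4 and the lowest for 4 (11.4% each, against 12.5% and 18.9%). Control replicate 2 was the highest for 4 (11.4%, against 16.6%) and the lowest for 9 (25.7%, against 16.2%), and control replicate 3 the highest for 5 (14.3%, against 19.9%) and the lowest for 6 (17.1%, against 13.9%). Several of these shares lay near those of all genes, and none was tested. AHCY, MTHFD1 and TYMS were high in labelled-knockdown replicate 2 and control replicate 1, whereas MAT2A, ODC1 and SMS were highest in labelled-knockdown replicate 1.

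**Figure D5:**
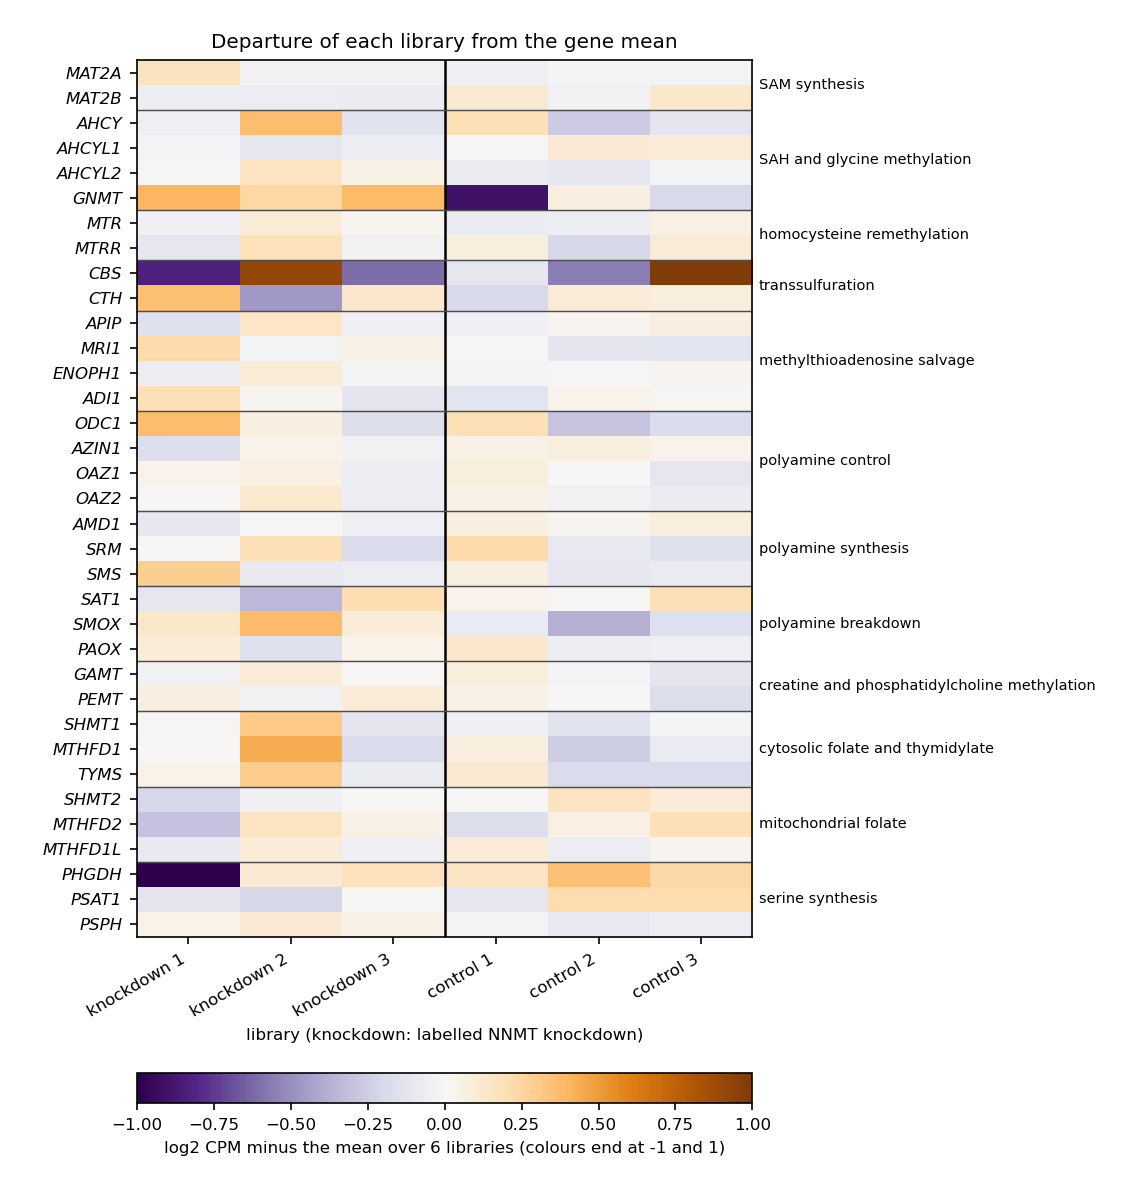
Departure of each tested gene's log2 CPM in each library from its mean over the 6 libraries, as a colour scale that ends at -1 and 1, with genes in rows by branch and the 3 labelled-knockdown libraries left of the 3 controls. PHGDH in labelled-knockdown replicate 1, CBS in several libraries and GNMT in control replicate 1 depart most from their means.

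Other genes of the same pathways were read from 6 further lists of 109 genes, of which 98 were tested. None of the 98 was called by edgeR's adjusted test, 5 had an unadjusted p under 0.05 (5.1%, against 4.03%) and 6 had groups that did not overlap (6.12%, against 9.17%). CHDH, which starts the oxidation of choline to betaine, had 1.36, 2.82 and 3.41 CPM in the labelled-knockdown libraries, against 5.31, 5.70 and 3.96 CPM in the controls. Its log2 fold change was -0.98 ± 0.31 (SE, n = 3 per group, adjusted p = 0.9995 in edgeR's test), and it passed the threshold only where low-count genes were not filtered out (adjusted p = 0.0277, within a range of 0.0277 to 0.9999 over the alternatives). MTAP, which cleaves methylthioadenosine at the head of the salvage pathway, had 46.1, 52.4 and 49.3 CPM in the labelled-knockdown libraries, against 61.4, 55.6 and 52.9 CPM in the controls. Both CHDH and MTAP were lower in all 3 labelled-knockdown libraries than in any control.

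Among folate and nucleotide genes, SLC25A32, the mitochondrial folate carrier, averaged 0.869 ± 0.0857 CPM in the labelled-knockdown libraries and 1.29 ± 0.193 CPM in the controls (SD, n = 3 each), and the groups did not overlap. GGH, which trims the glutamate tails of folates, averaged 58.4 ± 7.83 CPM in the labelled-knockdown libraries and 51.2 ± 5.13 CPM in the controls. PFAS, of purine synthesis, averaged 54.7 ± 5.83 CPM in the labelled-knockdown libraries and 48.1 ± 5.53 CPM in the controls. RRM1, a ribonucleotide reductase subunit, averaged 71.4 ± 14.7 CPM in the labelled-knockdown libraries and 62.3 ± 6.64 CPM in the controls. GGH, PFAS and RRM1 overlapped between the groups. IMPDH2, of guanine nucleotide synthesis, was the sixth gene without overlap, at 7.53 ± 0.267 CPM in the labelled-knockdown libraries and 8.04 ± 0.273 CPM in the controls. It was named after its values were seen, to complete that count.

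The further list of small-molecule methyltransferases also holds enzymes that act on proteins, such as PCMT1. HNMT, like NNMT, spends SAM on a metabolite, in its case histamine. It had 3.23, 3.52 and 3.98 CPM in the labelled-knockdown libraries, against 5.29, 5.79 and 5.40 CPM in the controls. The log2 fold change was -0.62 ± 0.17 (SE, n = 3 per group), its adjusted p was 0.9995 in edgeR's test, and the groups did not overlap. PCMT1, which repairs damaged aspartyl residues of proteins, averaged 53.4 ± 6.46 CPM in the labelled-knockdown libraries and 48.2 ± 2.20 CPM in the controls (SD, n = 3 each).

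The amino acid response, led by ATF4, drives several serine and folate genes when amino acids run short. ATF4 itself averaged 243.5 ± 9.50 CPM in the labelled-knockdown libraries and 259 ± 22.7 CPM in the controls (SD, n = 3 each). ATF3, a stress-induced factor of the same response, had 7.03, 6.41 and 8.79 CPM in the labelled-knockdown libraries, against 10.1, 11.7 and 10.4 CPM in the controls. DDIT4, an inhibitor of mTORC1, had 64.2, 48.6 and 60.3 CPM in the labelled-knockdown libraries, against 39.1, 42.1 and 51.5 CPM in the controls. ATF3 did not overlap and was lower in the labelled-knockdown libraries, with a log2 fold change of -0.53 ± 0.16 (SE), while DDIT4 overlapped through labelled-knockdown replicate 2 and control replicate 3, with 0.39 ± 0.13. Of the 20 genes of the list 9 had a fitted value above 0 and 11 below. An unadjusted p under 0.05 in edgeR's test was found for 3 of them, ATF3, DDIT4 and SLC7A11, against 4.03% of all tested genes. SLC7A11 averaged 79.5 ± 14.7 CPM in the labelled-knockdown libraries and 99.6 ± 12.1 CPM in the controls (SD). Its groups overlapped, and its log2 fold change was -0.32 ± 0.13 (SE). It was named after its values were seen, to complete the count of such genes. In the MYC network, MYC averaged 105.1 ± 11.7 CPM in the labelled-knockdown libraries and 104.7 ± 9.87 CPM in the controls, and the 2 genes with the lowest p, MXI1 and MYCL, overlapped between the groups, with log2 fold changes of -0.18 ± 0.14 for MXI1 and -0.45 ± 0.36 for MYCL (SE).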

How the data were processed

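RNA-seq was analysed from 6 libraries, 3 labelled NNMT knockdown and 3 control, grouped by the sample titles. The authors deposited raw read counts per gene, made with featureCounts 2.0.6 on hg38 alignments with GENCODE 44, per the file headers. The other deposited value used, per the file headers, is the merged exon length of each gene. Pairs had to have both mates aligned and not be chimeric, and reads were counted without strand, per the file headers. Mates were counted singly: 73.4% to 76.7% of counts from 2 to 10 were even, against 49.8% to 50.7% of counts of 1000 or more. Floors of 3 reads therefore cover counting error only and are too low. For the aligner, no name is given in the sources used here.

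CPM and RPKM were computed from the counts and library totals. Genes were filtered with filterByExpr, scaled with TMM and tested with the quasi-likelihood method of edgeR (version 4.0.16 in R 4.3.3, robust dispersion, with group as the sole term) over 20250 genes with Benjamini-Hochberg adjustment at 0.05. NNMT, below the filter, was added to the filtered genes for its own fit. Each standard error was computed from the F statistic. The test was checked on simulated counts. Alternatives were other scalings and filters, DESeq2 1.42.0, limma-voom 3.58.1, non-robust dispersion, halved counts, a replicate block and leaving out each library. Leaving out labelled-knockdown replicate 2 with control replicate 1, and principal transcript lengths from GENCODE 29, were added after seeing the data.

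The members and lists were chosen with earlier results of these data known. Named genes are NNMT, the members and up to 2 tested genes with the lowest p of each further list. Among members, full values are given for the most abundant gene of each branch per kilobase of merged exon and the 8 lowest p-values. They are also given for genes without overlap and genes below 1 CPM in every library. A few others are given in full where the text turns on them.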

Additional observations from a re-analysis of the deposited data

How the results depend on the processing

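No member was called in the reported fit or in any of its alternatives, and the lowest adjusted p of a member was 0.0873, for SMOX without a filter on low counts. Over all genes, where 0 were called with edgeR and 817 had an unadjusted p under 0.05, 72 were called without a filter, 8 with DESeq2, and 0 to 1 when 1 library was left out, the 1 being without control replicate 3. Of the further genes 1, CHDH, was called without a filter (log2 fold change -0.98). The cause was not tested. The exact test of ratios could not pass 0.05 in this design, so it says nothing about stability.

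When each library, or labelled-knockdown replicate 2 and control replicate 1 together, was left out, 15 of the 35 log2 fold changes took both signs. They ran from -0.014 to 0.12 for MAT2A, -0.033 to 0.28 for AHCY, -0.066 to 0.075 for MTRR, -1.27 to 0.36 for CBS, -0.14 to 0.27 for CTH, -0.12 to 0.026 for APIP, -0.033 to 0.026 for ENOPH1, -0.038 to 0.14 for ADI1, -0.039 to 0.080 for OAZ1, -0.081 to 0.14 for SRM, -0.051 to 0.24 for SMS, -0.071 to 0.15 for PAOX, -0.014 to 0.11 for GAMT, -0.22 to 0.057 for MTHFD2 and -0.068 to 0.024 for MTHFD1L. Without those 2 libraries together, the sign turned for MTRR (-0.0028), ENOPH1 (-0.031) and PAOX (0.15). The other 20 kept their sign when 1 library was left out. Of these 8 stayed within 1.5 times their reported value (AHCYL1, AHCYL2, AMD1, MAT2B, PSAT1, PSPH, SHMT2 and SMOX) and 12 moved by more. Of the 12, AZIN1 (-0.058) and MRI1 (0.081) were smaller without labelled-knockdown replicate 1. MTR ran from 0.025 to 0.085, OAZ2 from 0.0021 to 0.088 and PEMT from 0.011 to 0.14, each moved by 3 or more of the libraries. ODC1, SAT1, GNMT, SHMT1, MTHFD1, TYMS and PHGDH are given with their results. Of the 13 ratios, 4 took both signs on the log2 scale when a library was left out: MTR per MTRR from -0.039 to 0.11, CTH per CBS from -0.13 to 1.16, SMS per SRM from -0.046 to 0.24 and PSAT1 per PHGDH from -0.10 to 0.50. The cause was not tested.

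With the replicate number as a block, 0 members and 0 genes overall were called, and 1 member had an unadjusted p under 0.05. Same-numbered libraries deviated with correlations of 0.0622, -0.139 and 0.278 for replicates 1, 2 and 3. That of replicate 3 was the highest between any labelled-knockdown and control library. Labelled-knockdown replicate 1 correlated best with control replicate 2 (0.0797), and labelled-knockdown replicate 2 with control replicate 1 (0.241). So few libraries cannot decide whether the numbers pair the samples.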
